A study of Rattus norvegicus with 16 samples.

Results

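Transcripts with their highest level at an intermediate glucose concentration were examined in rat islets kept in culture, the clusters of endocrine cells in the pancreas, most of which are beta cells that make insulin. Members were chosen by the signals themselves, as the probe sets with 1 gene symbol and a mean signal of 100 or more whose higher mean at 5 or 10 mmol/l lay at least 0.6 on the log2 scale (1.52-fold) above the mean at 2 and the mean at 30 mmol/l. The names on the rule's list of exclusions and genes of G protein-coupled receptors were to be left out, which removed 0 probe sets. The rule chose 21 probe sets of 17 genes, out of 9012 probe sets of 7067 genes that met its conditions on annotation and level, a share of 0.233%. Another 2 probe sets with several symbols and 13 with none passed the level and the height and are not members. The rule was also turned over, with no gene left out by name or as a receptor. By it, 47 probe sets of 45 genes were lowest at an intermediate concentration. Since the means of the same 16 arrays selected the members, the height of the peak is given as a description, with no test.

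The study used islets of male Wistar rats weighing 180 to 200 g, whose age the labels do not give. After isolation, the islets spent 1 week in RPMI medium without serum, with glucose at 10 mmol/l and BSA at 5 g/l, and then 18 h in the same kind of medium with glucose at 2, 5, 10 or 30 mmol/l, 1000 islets for each. Total RNA was measured on 16 Affymetrix Rat230_2 arrays, 4 per concentration, and the study describes 4 experiments on different islet preparations. A replicate number is taken as 1 preparation, and values below are listed in the order of replicates 1 to 4. All 4 groups share the 1 week at 10 mmol/l, so the 10 mmol/l group is also the group whose glucose did not change, and no array of islets before the 18 h was analysed here. Levels are signals on a linear scale that the authors set to the same trimmed mean in every array (150.042 to 150.051), and fewer cells of a type and less RNA per cell cannot be told apart in whole islets.

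Glucose enters beta cells by facilitated transport, and its breakdown raises ATP, closes ATP-sensitive potassium channels and lets calcium in, which releases insulin. Rat islets release little insulin at a few mmol/l and more at stimulatory concentrations, and long culture at very low or very high glucose stresses beta cells. A transcript that is highest at an intermediate concentration is lower on both sides of the range, so a comparison of the highest with the lowest glucose alone can miss it.

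The members fell into 2 sets by the concentration of their highest mean. With the highest mean at 5 mmol/l stood 7 probe sets of 6 genes: Cmbl (2 probe sets), Serpinb9b, Serpina6, Zbtb38, Trappc6a and Stx3. With the highest mean at 10 mmol/l stood 14 probe sets of 11 genes: Pcdh9, Tnfrsf11b, Kctd12 (2), Gria2, Aass, Vsnl1 (2), Ttll7 (2), Ppp1r1a, Dpy19l3, Fndc10 and Ccnt2. The 4 genes with 2 probe sets had both of them at the same concentration. Peak height, which is the log2 mean at the peak minus the higher of the 2 and 30 mmol/l means, ran from 0.61 to 1.13 with a median of 0.72. Mean signals over the 16 arrays ran from 103 to 1820 with a median of 320.1. Sorted by hand by role, with the members known and no test, 4 genes code for signalling proteins (Gria2, Kctd12, Vsnl1, Ppp1r1a), 5 for secreted, surface or protease-inhibitor proteins (Tnfrsf11b, Pcdh9, Fndc10, Serpina6, Serpinb9b), 4 for enzymes (Cmbl, Aass, Ttll7, Dpy19l3), and a pair each for membrane traffic (Trappc6a, Stx3) and gene regulation (Zbtb38, Ccnt2).

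**Figure D1:**
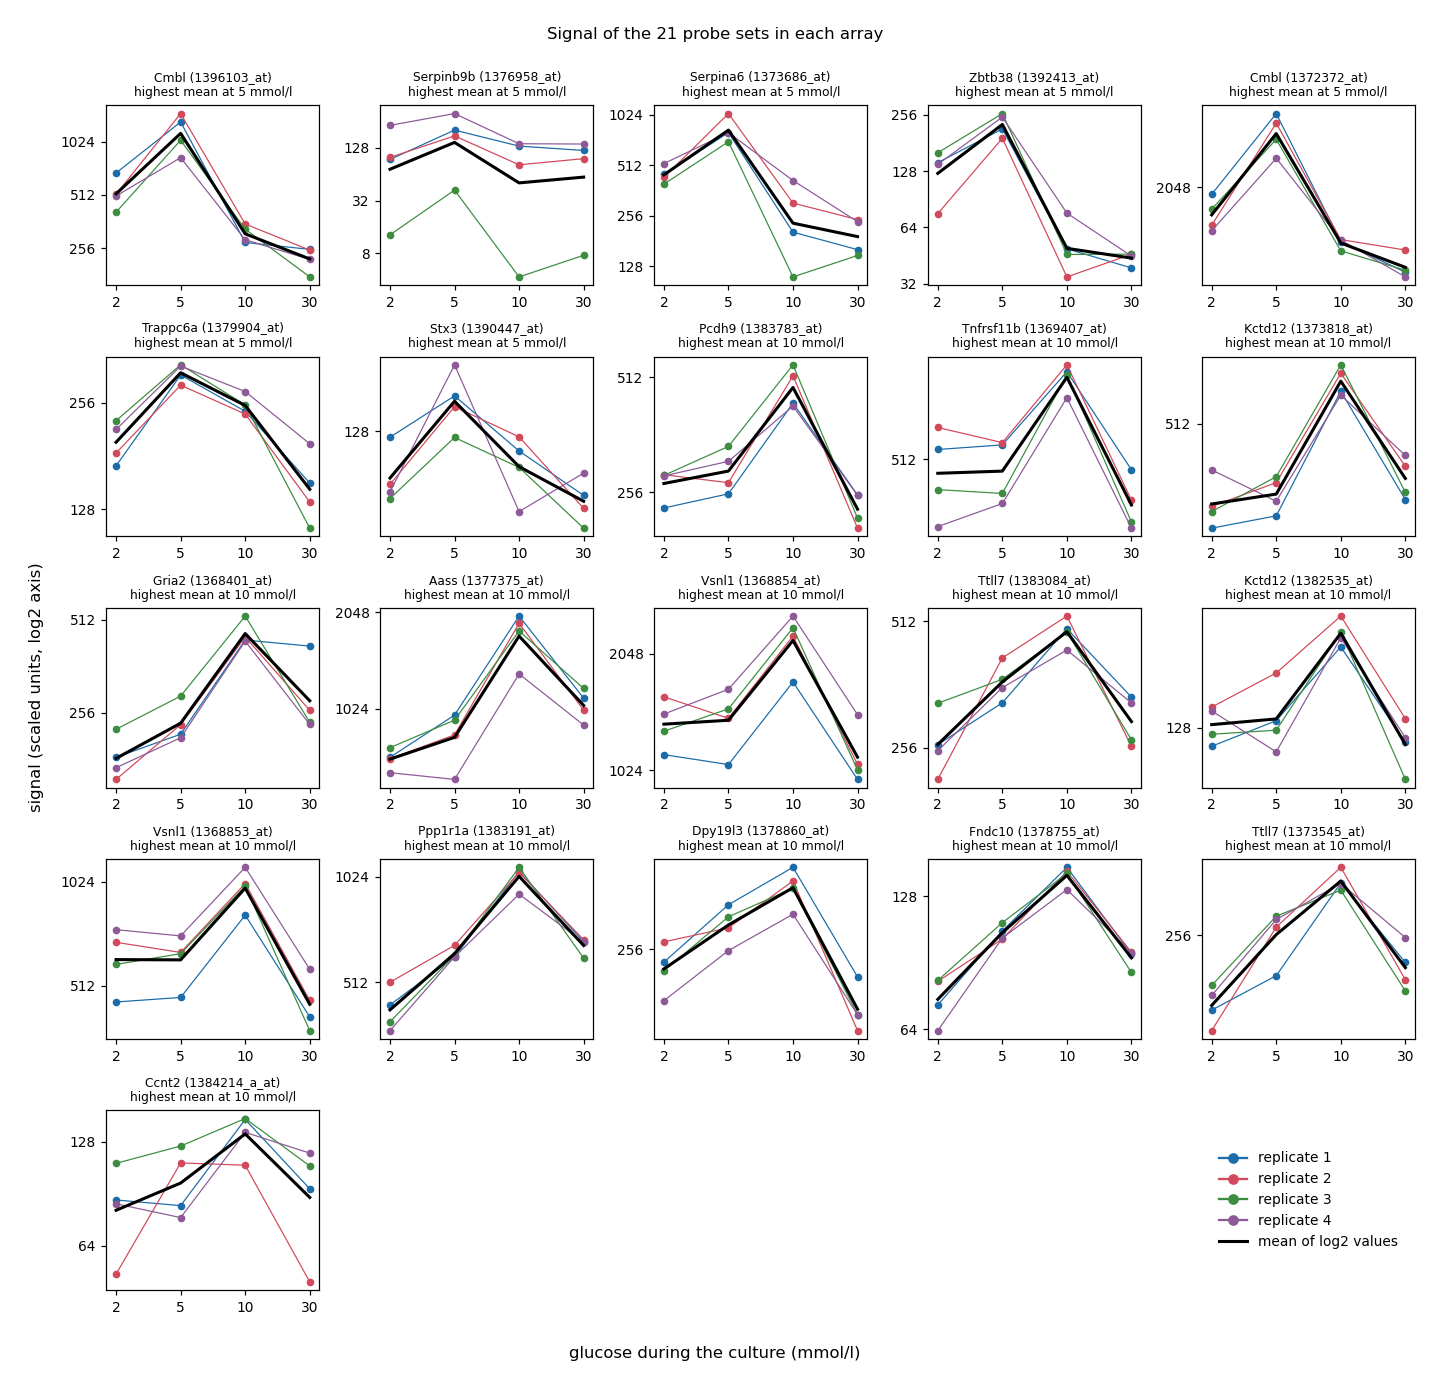
Signal (scaled units, log2 axis, each panel with its own range) of the 21 member probe sets against glucose (mmol/l). Points joined by a thin line are the 4 arrays of 1 replicate and the black line is the mean of the log2 values; the first 7 panels have their highest mean at 5 mmol/l and the other 14 at 10 mmol/l.

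Promoter windows were read to show what DNA lies before genes that share the pattern. RefSeq's promoter windows of build GRCr8, 250 bases before to 50 after each start, held 13 of the 17 genes, and Serpina6, Gria2, Tnfrsf11b and Ppp1r1a had no entry. The windows below belong to Cmbl (chr2:84279878-84280177 on the plus strand), the highest peak at 5 mmol/l, and to Vsnl1 (chr6:39878507-39878806 on the minus strand) and Aass (chr4:52628762-52629061 on the minus strand), among the brightest peaks at 10 mmol/l. Capitals mark GGGCGG, the GC box, and CCAAT, each on either strand.
Cmbl: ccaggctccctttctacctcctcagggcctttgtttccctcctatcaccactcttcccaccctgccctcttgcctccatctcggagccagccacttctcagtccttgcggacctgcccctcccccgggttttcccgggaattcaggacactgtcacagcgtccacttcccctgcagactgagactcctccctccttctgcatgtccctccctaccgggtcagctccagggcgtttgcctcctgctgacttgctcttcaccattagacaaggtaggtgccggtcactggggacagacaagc
Vsnl1: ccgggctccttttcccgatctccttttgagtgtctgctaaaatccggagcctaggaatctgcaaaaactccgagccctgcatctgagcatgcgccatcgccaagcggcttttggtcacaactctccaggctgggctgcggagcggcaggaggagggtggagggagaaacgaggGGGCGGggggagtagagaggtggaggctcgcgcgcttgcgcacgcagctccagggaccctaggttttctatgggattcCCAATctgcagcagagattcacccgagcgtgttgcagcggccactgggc
Aass: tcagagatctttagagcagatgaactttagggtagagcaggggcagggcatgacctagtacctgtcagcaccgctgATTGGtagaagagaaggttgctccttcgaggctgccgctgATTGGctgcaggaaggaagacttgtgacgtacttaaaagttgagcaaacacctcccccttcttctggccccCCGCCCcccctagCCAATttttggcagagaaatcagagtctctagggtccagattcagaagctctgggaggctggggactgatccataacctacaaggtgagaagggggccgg

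The window of Cmbl held neither motif, that of Vsnl1 held 1 of each, and that of Aass held 1 GC box and 3 CCAAT motifs, with no overlap between them. Over the 13 genes, 8 held GGGCGG, against 33.1% of all 33469 windows, and 6 held CCAAT, against 37.5%. A gene with several windows (Ttll7, with 6) counts once, and over windows GGGCGG stood in 44.4% and CCAAT in 33.3% of the 18. Of the genes highest at 5 mmol/l, Trappc6a and Stx3 held both motifs and Cmbl, Serpinb9b and Zbtb38 held neither. The median GC content was 61.7% in the members' windows and 51.7% in all windows. The set of all windows was not matched to the members by signal level, here or in the motif shares. CACGTG, the E-box core of carbohydrate response elements, and TGACGTCA, the full cAMP response element, stood in 0 member windows, against 6.42% and 1.83% of all windows. TGTTTAC, a forkhead motif, stood in the window of Pcdh9 (3.78% of all), and TGATGNAA, an amino acid response element, in that of Serpinb9b (3.98%). TTATGNAA and GTCTAGAC stood in 0 member windows, against 3.66% and 0.197% of all. Both strands were searched throughout, and a match is a description of the letters.

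Among the transcripts highest at 5 mmol/l, Cmbl, which codes for a hydrolase that opens cyclic esters of some drugs, had the highest peak of all members. Its probe set 1396103_at read 681, 516, 409 and 505 at 2 mmol/l, 1319.7, 1471, 1041 and 830.1 at 5 mmol/l, 276, 351, 328 and 286 at 10 mmol/l and 252, 249.8, 176 and 222 at 30 mmol/l. Every array at 5 mmol/l lay above every array at 2, 10 and 30 mmol/l, and the arrays at 10 mmol/l lay below all arrays at 2 mmol/l. The mean at 5 mmol/l was 2.19-fold that at 2 mmol/l and 5.11-fold that at 30 mmol/l. The brighter probe set 1372372_at read 1955, 1603, 1777 and 1547 at 2 mmol/l, 3279, 3084, 2780.4 and 2463 at 5 mmol/l, 1444, 1462, 1360.4 and 1459 at 10 mmol/l and 1187, 1368, 1202 and 1151 at 30 mmol/l. Its 5 mmol/l arrays also lay above all others, with a peak of 1.68-fold against 2.19-fold for the first.

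Serpina6 codes for corticosteroid-binding globulin, the carrier of glucocorticoids in blood, made mainly in liver. Its signal was 453, 434, 396 and 525 at 2 mmol/l, 803, 1041, 708 and 802 at 5 mmol/l, 205, 305, 111 and 416 at 10 mmol/l and 161, 243, 149 and 237 at 30 mmol/l. All 5 mmol/l arrays lay above all arrays of the other groups, the peak was 1.85-fold, and 10 and 30 mmol/l lay below 2 mmol/l in every replicate. Zbtb38 codes for a zinc finger protein that binds methylated DNA. It read 142, 75.9, 161 and 139 at 2 mmol/l, 216, 192, 260.4 and 249 at 5 mmol/l, 49.2, 34.8, 45.9 and 76.4 at 10 mmol/l and 38.9, 46, 46.1 and 45 at 30 mmol/l. The drop from 5 to 10 mmol/l was the steepest among members, -2.20 on the log2 scale. A second, brighter probe set of Zbtb38, 1378009_at, showed no peak, with means of 609 ± 77.1, 601 ± 112, 502 ± 70.1 and 431 ± 65.8 (SD, n = 4) at the 4 concentrations in rising order.

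Serpinb9b, of the family of intracellular serine protease inhibitors, had a peak of 1.02 on the log2 scale and the widest spread of all members. It read 94.5, 99.7, 13 and 232 at 2 mmol/l, 204, 176, 42.2 and 316 at 5 mmol/l, 134, 82.1, 4.3 and 143 at 10 mmol/l and 119.7, 96.5, 7.6 and 142 at 30 mmol/l. Replicate 3 was low at every concentration and replicate 4 high, and yet each replicate had its highest signal at 5 mmol/l. The groups overlap, and without 2 mmol/l replicate 3 the peak height from the means was 0.19, and without 30 mmol/l replicate 3 it was 0.33. The trafficking genes had lower peaks. Trappc6a, a subunit of the TRAPP complexes that tether vesicles, read 169.8, 185, 228 and 215 at 2 mmol/l, 306, 287, 328 and 325 at 5 mmol/l, 242, 238, 252 and 275 at 10 mmol/l and 152, 134, 113 and 196 at 30 mmol/l. Its arrays at 5 mmol/l lay above all arrays at 2 and 30 mmol/l, by 1.57-fold from mean to mean, and 10 mmol/l stood between. Stx3, a plasma membrane SNARE protein of granule fusion, ran from 86.7 to 124 at 2 mmol/l, 124 to 188 at 5 mmol/l, 80.4 to 124 at 10 mmol/l and 73 to 100.5 at 30 mmol/l, with groups that overlap and a peak height of 0.64.

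From 5 to 10 mmol/l, most members of the first set went below their level at 2 mmol/l. In 5 of the 7 probe sets (both of Cmbl, Serpinb9b, Serpina6 and Zbtb38) the 10 mmol/l mean was below the 2 mmol/l mean, and in Trappc6a and Stx3 it was above. The median change from 5 to 10 mmol/l was -1.54 on the log2 scale, with sizes from 0.31 to 2.20. All 7 had a lower mean at 30 than at 2 mmol/l.

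Among the transcripts highest at 10 mmol/l, Gria2 codes for the AMPA receptor subunit that limits calcium entry. Its probe set 1368401_at read 184, 156, 226 and 169.9 at 2 mmol/l, 218, 234, 290.0 and 212 at 5 mmol/l, 441, 451, 527 and 437 at 10 mmol/l and 421, 261, 238 and 235 at 30 mmol/l. The 10 mmol/l arrays lay above all others, with a peak of 1.65-fold over 30 mmol/l and 2.54-fold over 2 mmol/l, but replicate 1 was nearly as high at 30 mmol/l, so its own peak height was only 0.07. A second Gria2 probe set, 1387171_at, fell just short of the rule at 0.57, with means of 62.7 ± 14.8, 99.9 ± 14.1, 169 ± 16.99 and 114 ± 15.7 (SD, n = 4) at 2, 5, 10 and 30 mmol/l.

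Vsnl1 codes for a calcium sensor of neurons that is also made in beta cells. Its brighter probe set 1368854_at read 1124, 1585, 1292 and 1431 at 2 mmol/l, 1059.7, 1395, 1476 and 1658 at 5 mmol/l, 1731, 2274, 2389 and 2561 at 10 mmol/l and 970.1, 1061, 1025 and 1425 at 30 mmol/l. Each replicate had its highest value at 10 mmol/l, replicate 1 was low and replicate 4 high at that concentration, and 2 and 5 mmol/l gave nearly the same mean. The peak was 1.64-fold, and 1.61-fold on 1368853_at, which ran from 460.1 to 744 at 2 mmol/l, 474 to 714 at 5 mmol/l, 819.9 to 1127 at 10 mmol/l and 380.2 to 572 at 30 mmol/l. Kctd12 codes for an auxiliary subunit of GABA-B receptors. On 1373818_at it read 296, 332, 323 and 402 at 2 mmol/l, 316, 376, 388 and 341 at 5 mmol/l, 607, 668, 698 and 595 at 10 mmol/l and 344, 409.6, 357 and 434 at 30 mmol/l. The 10 mmol/l arrays lay above all others at 1.67-fold over 30 mmol/l. On its dimmer probe set 1382535_at it ran from 116 to 143 at 2 mmol/l, 112 to 172 at 5 mmol/l, 197 to 232 at 10 mmol/l and 97.1 to 134 at 30 mmol/l, with a peak of 1.63-fold.

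Ppp1r1a codes for an inhibitor of protein phosphatase 1 that is switched on by protein kinase A, and it is abundant in beta cells. Its probe set 1383191_at read 441, 512, 395 and 372 at 2 mmol/l, 604, 653, 611 and 605 at 5 mmol/l, 1061, 1053, 1089.7 and 913 at 10 mmol/l and 668, 677, 600.0 and 666 at 30 mmol/l. Signals climbed from 2 to 10 mmol/l in every replicate and came down at 30 mmol/l to about the level at 5 mmol/l. The peak was 1.57-fold over 30 mmol/l and 2.41-fold over 2 mmol/l. A second, much brighter probe set, 1386968_at, had means of 2510.3 ± 219, 2966 ± 98.2, 4264 ± 166 and 3032 ± 192 (SD, n = 4), also highest at 10 mmol/l, with a height of 0.49.

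Of the secreted and surface proteins, Pcdh9, a protocadherin of cell adhesion, had the highest peak at 10 mmol/l. It read 233, 285, 284 and 283 at 2 mmol/l, 254, 271, 338 and 309 at 5 mmol/l, 438, 516, 552 and 430.5 at 10 mmol/l and 252, 206, 219 and 251 at 30 mmol/l. The 10 mmol/l arrays lay above all others, at 1.78-fold over 2 mmol/l and 2.08-fold over 30 mmol/l. Tnfrsf11b codes for osteoprotegerin, the secreted decoy receptor for RANKL. Its signal was 541, 612, 432 and 350.4 at 2 mmol/l, 555, 562, 422 and 399 at 5 mmol/l, 839, 872, 824 and 724 at 10 mmol/l and 483, 407, 359.6 and 347 at 30 mmol/l. The 10 mmol/l arrays lay above all others, the peak was 1.72-fold, and 2 and 5 mmol/l overlapped. Fndc10, of the fibronectin type III domain proteins, read 72.6, 82.1, 82.5 and 63.5 at 2 mmol/l, 107, 102, 112 and 103 at 5 mmol/l, 149, 146, 144 and 132 at 10 mmol/l and 94.7, 95.6, 86 and 95.4 at 30 mmol/l. Signals were higher at 5 than at 2 and at 10 than at 5 mmol/l in every replicate, and at 30 mmol/l they were 1.54-fold under the peak.

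Aass codes for the bifunctional enzyme that opens the breakdown of lysine. It read 723, 715, 775 and 647 at 2 mmol/l, 979, 849, 944 and 617 at 5 mmol/l, 1991, 1891, 1788 and 1314 at 10 mmol/l and 1105, 1014, 1185 and 911 at 30 mmol/l. The 10 mmol/l arrays lay above all others, at 1.64-fold over 30 mmol/l and 2.42-fold over 2 mmol/l, and replicate 4 was the lowest at each concentration. Ttll7 codes for an enzyme that adds glutamates to tubulin. On 1383084_at it read 261, 215, 327 and 252 at 2 mmol/l, 328, 419, 373 and 356 at 5 mmol/l, 492, 527, 483 and 438 at 10 mmol/l and 338, 258, 268 and 327 at 30 mmol/l. The 10 mmol/l arrays lay above all arrays at 2 and 30 mmol/l, by 1.64-fold from the 30 mmol/l mean. On 1373545_at, which ran from 160.1 to 199.9 at 2 mmol/l, 209.7 to 281 at 5 mmol/l, 319 to 357 at 10 mmol/l and 195 to 253 at 30 mmol/l, the peak was 1.53-fold. A further probe set, 1394422_at, had no peak, with means of 242 ± 12.999, 177 ± 23.4, 180.4 ± 18.8 and 127 ± 1.51 (SD, n = 4), highest at 2 mmol/l.

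The last members stood close to the threshold. Dpy19l3, which attaches mannose to tryptophan in secreted proteins, ran from 194 to 266 at 2 mmol/l, 254 to 325 at 5 mmol/l, 309 to 397 at 10 mmol/l and 166 to 221 at 30 mmol/l, with a height of 0.63. Ccnt2 codes for cyclin T2, a partner of the elongation kinase P-TEFb. It ran from 53 to 111 at 2 mmol/l, 77.2 to 124 at 5 mmol/l, 109 to 149 at 10 mmol/l and 50.3 to 119 at 30 mmol/l, with groups that overlap and a height of 0.61. Its brightest probe set, 1399100_at, had a height of only 0.20, with means of 244, 223, 279 and 242 at the 4 concentrations in rising order. The other probe sets of Ccnt2 had heights of 0.18 and 0.17. Just inside the 0.6 threshold lay Ccnt2 (0.61), Ttll7 on 1373545_at (0.61), Fndc10 (0.62), Dpy19l3 (0.63) and Stx3 (0.64). Just outside lay Myh1 (0.59), LOC100911506 (0.59), Ripply3 (0.58), the second Gria2 probe set (0.57) and Usp35 (0.57). In all, 8 member genes had 11 further probe sets that the rule did not choose, 6 of them under a mean signal of 100. Of the 11, 9 had their mean at 5 or 10 mmol/l above both ends, with a median height of 0.27 over the 11. Those without a peak were the ones of Zbtb38 and Ttll7. The share of all probe sets with such a mean is not given here, so nothing is read from the 9.

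The arrays at the peak concentration lay above all 8 arrays of the ends for 18 of the 21 members. This separation was seen in 3.96% of the 9012 probe sets open to the rule, and since the rule used the same signals nothing is read from it. The 3 members with overlap were Serpinb9b, Stx3 and Ccnt2. Within single replicates, all 21 members had their peak concentration above both ends in 4 of 4 replicates. The rule used the means of these replicates, so nothing is read from this count either. The heights within a replicate ran from 0.07 (Gria2, replicate 1) to 1.70 (Serpinb9b, replicate 3).

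**Figure D2:**
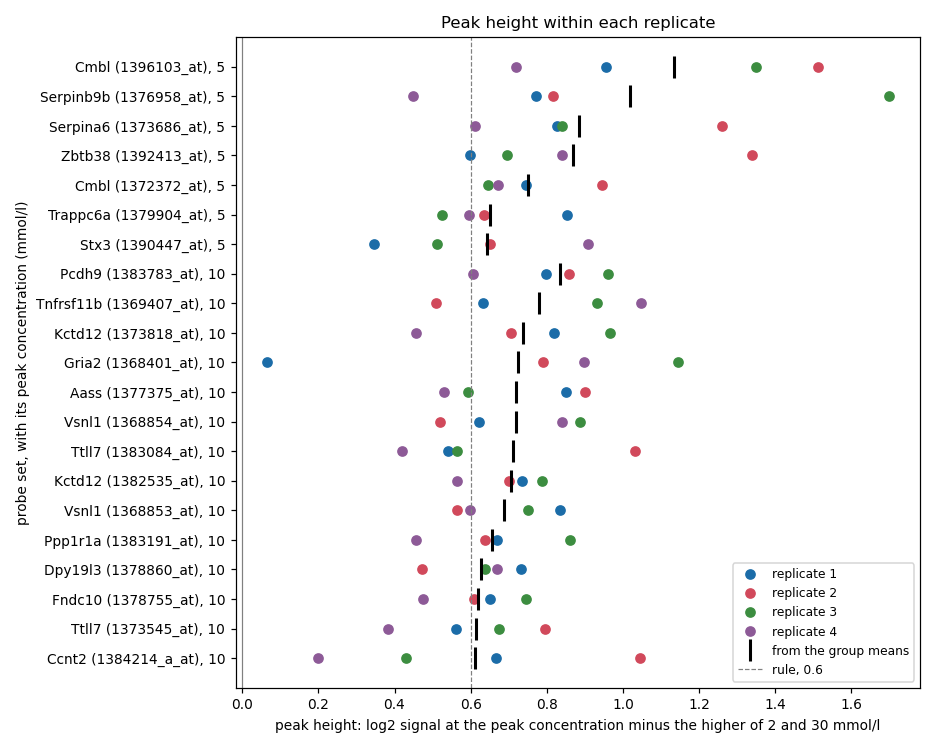
Peak height (log2 signal at the peak concentration minus the higher of 2 and 30 mmol/l) of each member probe set in each of the 4 replicates (points) and from the group means (bars), with the rule's 0.6 as a dashed line. All points lie right of 0, and Gria2 in replicate 1 lies closest to it. The members were chosen on the same arrays.

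Replicates that took no part in the choice were read by choosing probe sets on 3 replicates and looking at the replicate left out. With replicate 1, 2, 3 or 4 left out, the rule chose 28, 24, 21 and 33 probe sets. Of these, 18, 19, 16 and 19 were members, and the rest were not. In the replicate left out, 27, 24, 21 and 30 of all those chosen had the chosen peak concentration above both ends. This is 102 of 106 choices over 48 different probe sets, members and others together. Among all probe sets open to the rule, 37.7% to 39.99% had their peak concentration above both ends in the replicate left out. The median height of the chosen probe sets in the replicate left out was 0.58, 0.64, 0.65 and 0.46, against 0.67 to 0.69 in the 3 used, and against -0.08 to -0.06 for all open probe sets. A height of 0.6 or more recurred in 13, 15, 12 and 9, which is 49 of 106. The 4 rounds share replicates and probe sets, so they are a description. Each concentration was also run on its own module of the fluidics station in all 4 runs, so a replicate left out shares the module with the others, and glucose and module cannot be told apart.

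**Figure D3:**
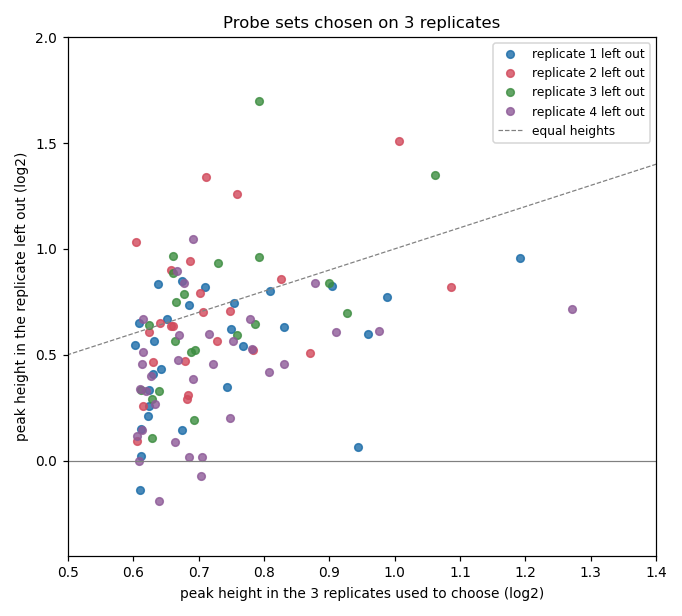
Peak height (log2) in the replicate left out against the peak height in the 3 replicates used to choose, 1 point per chosen probe set, coloured by the replicate left out, with a dashed line at equal heights. Of the 106 points, 102 lie above 0, and 49 at 0.6 or more. The points include probe sets that are not members.

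Array controls moved with glucose too. The mean of the 18 hybridization control probe sets, which read RNA added at the hybridization step, was 9.62 ± 0.14, 9.84 ± 0.19, 10.13 ± 0.08 and 9.89 ± 0.07 (log2, SD, n = 4) at 2, 5, 10 and 30 mmol/l. It was highest at 10 mmol/l in 4 of 4 replicates, 0.51 above 2 mmol/l and 0.24 above 30 mmol/l. The ratio of 3′ to 5′ signal of the Actb controls was 1.76 ± 0.13 at 2 mmol/l, and 2.04 ± 0.08, 2.07 ± 0.14 and 2.04 ± 0.08 at 5, 10 and 30 mmol/l. The members' own arrays were therefore also read with each array centred on its hybridization controls, a setting chosen after these controls were seen. This centring takes at most 0.51 off a height, less than the rule's 0.6. All 21 members thus had to keep their higher intermediate mean above both ends, and nothing is read from that. Their median height was then 0.42 and the lowest 0.12 (Dpy19l3). Only 4 kept a height of 0.6, and these were peaks at 5 mmol/l: Cmbl on 1396103_at, Serpinb9b, Serpina6 and Zbtb38. The centring takes 0.51 over 2 mmol/l and 0.24 over 30 mmol/l off a peak at 10 mmol/l. Off a peak at 5 mmol/l it takes 0.22 over 2 mmol/l and nothing over 30 mmol/l. Peaks at 5 mmol/l were thus lowered less, and nothing is read from which members kept 0.6. With quantile normalization 17 of the 21 stayed past 0.6, with a median of 0.69. The part of these controls in the peaks was not tested.

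**Figure D4:**
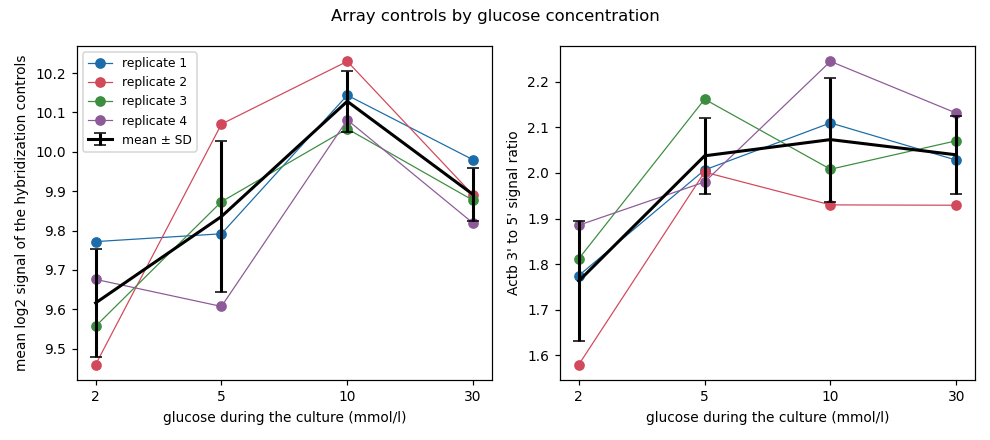
Mean log2 signal of the hybridization controls (left) and ratio of 3′ to 5′ signal of the Actb controls (right) in each array against glucose (mmol/l); thin lines join the arrays of 1 replicate, and the black line is the mean ± SD of 4 arrays. The hybridization controls are highest at 10 mmol/l in each replicate, and the Actb ratio is lowest at 2 mmol/l from mean to mean.

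The rule does not fix which end is the lower one, so 30 against 2 mmol/l was tested, with limma over 18625 probe sets, which are the 60% with the highest mean level. The question is whether the islets at very high glucose come back to the level at very low glucose or to another one. Among the 21 members 11 passed at an adjusted p under 0.05, 52.4% of them, 4 higher and 7 lower at 30 mmol/l. Of all tested probe sets 36.9% passed, 16.3% higher and 20.6% lower. The median change was -0.22 (log2) over the members and -0.03 over all tested probe sets. With the replicate number as a block, 14 members passed, 5 higher and 9 lower. More of all tested probe sets passed with the block too, 8615 of 18625, 3847 higher and 4768 lower.

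Of the 7 members with their peak at 5 mmol/l, 5 fell between 2 and 30 mmol/l, 0 rose and 2 did not pass. Zbtb38 changed by -1.51 ± 0.23 on the log2 scale (SE, n = 4 and 4, adjusted p = 4.69e-05), a mean 2.84-fold higher at 2 than at 30 mmol/l. Serpina6 changed by -1.22 ± 0.28 (adjusted p = 0.00204), Cmbl by -1.22 ± 0.17 on 1396103_at (adjusted p = 2.03e-05) and by -0.48 ± 0.09 on 1372372_at (adjusted p = 0.000364). In these 4 probe sets all arrays at 30 mmol/l lay below all arrays at 2 mmol/l. Trappc6a changed by -0.44 ± 0.14 (adjusted p = 0.0179). The 2 that did not pass were Stx3, at -0.19 ± 0.17, and Serpinb9b, at -0.30 ± 1.10, where the SE is larger than the change.

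Of the 14 members with their peak at 10 mmol/l, 4 rose, 2 fell and 8 did not pass. Gria2 changed by 0.62 ± 0.16 (adjusted p = 0.00613), Ppp1r1a by 0.61 ± 0.09 (adjusted p = 4.37e-05), Aass by 0.56 ± 0.14 (adjusted p = 0.00416) and Fndc10 by 0.31 ± 0.12 (adjusted p = 0.0405). Gria2, Ppp1r1a, Aass and Fndc10 were thus lowest at 2 mmol/l from mean to mean and stood at an intermediate level at 30 mmol/l. Vsnl1 fell by 0.43 on the log2 scale on 1368853_at (SE 0.16, adjusted p = 0.0385), and its brighter probe set 1368854_at was at -0.28 ± 0.15 (adjusted p = 0.154, and 0.00664 with the replicate block). Dpy19l3 fell by 0.31 (SE 0.12, adjusted p = 0.0492). Tnfrsf11b (-0.26 ± 0.16, adjusted p = 0.216) and Ttll7 on 1373545_at (0.27 ± 0.11, adjusted p = 0.0709) passed only with the block, at 0.0227 and 0.043. The Kctd12 probe sets, at 0.19 ± 0.11 and -0.15 ± 0.14, had opposite signs and neither passed. Whether the direction differs between the peaks at 5 and at 10 mmol/l was not tested.

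Of the 11 calls, 7 held with any 1 array left out: those of Zbtb38, Serpina6, both Cmbl probe sets, Gria2, Ppp1r1a and Aass. Trappc6a lost its call without 2 mmol/l replicate 3 or 4 or 30 mmol/l replicate 2 or 3 (up to adjusted p = 0.0747, for replicate 3 at 30 mmol/l). Vsnl1 on 1368853_at lost it without 2 mmol/l replicate 2, 3 or 4 or 30 mmol/l replicate 1, 2 or 3 (up to adjusted p = 0.131, for replicate 4 at 2 mmol/l). Fndc10 lost it without 2 mmol/l replicate 1 or 4 or 30 mmol/l replicate 1, 2 or 4 (up to adjusted p = 0.140, for replicate 4 at 2 mmol/l). Dpy19l3 lost it without any of 11 arrays, namely replicates 1, 2 and 3 at 2 mmol/l, 1, 2 and 3 at 5 mmol/l, 2 and 3 at 10 mmol/l and 2, 3 and 4 at 30 mmol/l (up to adjusted p = 0.154, for replicate 2 at 2 mmol/l). Quantile normalization also ended the calls of Trappc6a (adjusted p = 0.0602), Vsnl1 on 1368853_at (0.0605) and Dpy19l3 (0.144), and with it Vsnl1 on 1368854_at (0.0445) and Ttll7 on 1373545_at (0.0208) passed. Some other settings ended calls of these 4 probe sets: with only the 2 and 30 mmol/l arrays Trappc6a (0.0575), Dpy19l3 (0.0816) and Fndc10 (0.118), with median centring Dpy19l3 (0.0697) and Fndc10 (0.0574), with an offset of 50 on the signal Dpy19l3 (0.056) and Fndc10 (0.0563), and with all probe sets tested Vsnl1 on 1368853_at (0.0859) and Dpy19l3 (0.0708). Without the eBayes trend Vsnl1 on 1368853_at (0.0664) and Dpy19l3 (0.0623) did not pass.

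**Figure D5:**
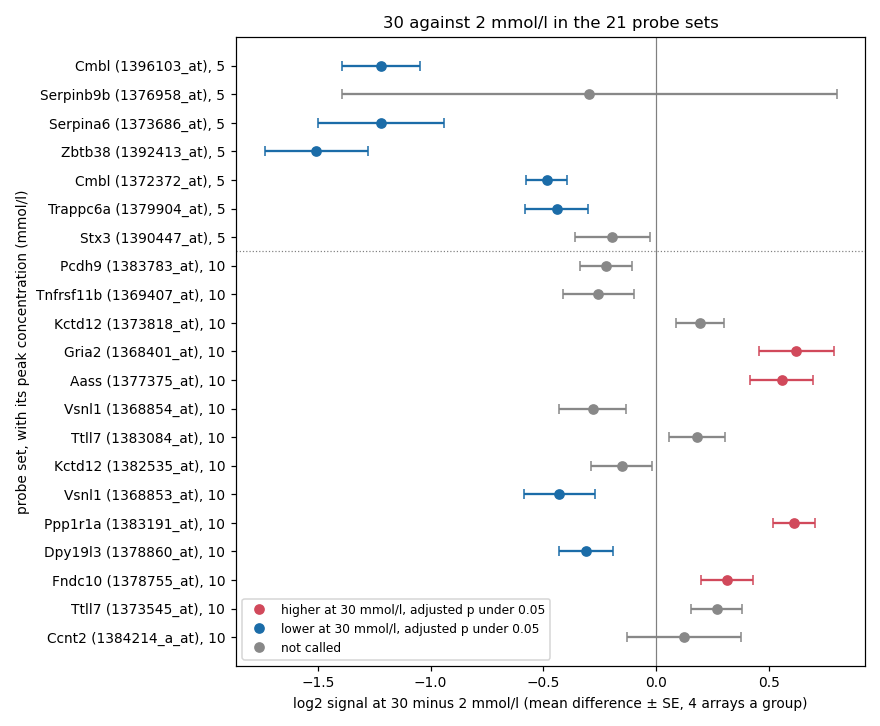
Log2 signal at 30 minus 2 mmol/l (mean difference with its SE, 4 arrays a group) for each member probe set, named with its peak concentration, coloured by limma's call. Of the 7 probe sets above the dotted line, which peak at 5 mmol/l, 5 are lower at 30 mmol/l, and of the 14 below it 4 are higher and 2 lower.

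Acvr1c and Map2k6, the genes named as markers of the pattern, showed it but missed the rule, and as they were named from these data no test is given for them. Acvr1c codes for ALK7, a type I receptor of the activin and TGF-beta family that is made in beta cells. Its signal was 53.2, 106, 118 and 119 at 2 mmol/l, 133, 157, 139 and 120.3 at 5 mmol/l, 122, 157, 134 and 148 at 10 mmol/l and 43.3, 58.5, 80.9 and 76.6 at 30 mmol/l. The arrays at 30 mmol/l lay below all others except 2 mmol/l replicate 1, the 5 and 10 mmol/l means were nearly equal, and the height was 0.57 with a mean signal of 110.4. Map2k6 codes for MKK6, a kinase that activates p38. It read 31.4, 40.7, 37.3 and 31.8 at 2 mmol/l, 41.9, 64.8, 58.3 and 44.6 at 5 mmol/l, 64.2, 50.1, 55.2 and 35.3 at 10 mmol/l and 36.1, 21.3, 25.4 and 27.5 at 30 mmol/l. Its height was 0.55 and its mean signal of 41.6 lay under the 100 that the rule asks for.

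Relatives of both genes had lower peak heights. Tgfbr1, a type I receptor close to ALK7, had means of 1487 ± 68.03, 1594 ± 55.5, 1510.1 ± 34.7 and 1005 ± 45.6 (SD, n = 4) on its brighter probe set, with a height of 0.10, and a height of 0.01 on the other. For Acvr1, another type I receptor, the 3 probe sets had heights of -0.01, 0.01 and -0.08. Map2k3, another kinase of p38, had a height of -0.25, with intermediate means below those at 2 and at 30 mmol/l.

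Pathways around these genes were read as the mean of 5 and 10 mmol/l over the mean of 2 and 30 mmol/l, for genes that are not members. By limma, 7.65% of the probe sets passed, 4.28% higher and 3.37% lower, and 4.96% of the 10221 tested genes were higher and 4.46% lower in this contrast, with a median of 0.01. Acvr1c and Map2k6, which were named from these arrays, are left out of their lists here. In the activin, BMP and TGF-beta pathway 2 of the 34 other tested genes were higher and 1 lower, with a median of 0.07. The higher genes were Tgfbr1 (0.34 ± 0.04, log2 with SE, adjusted p = 0.000124) and the ligand Gdf11 (0.37 ± 0.09, adjusted p = 0.0166). Tgfbr1 had means of 1487, 1594, 1510 and 1005 at 2, 5, 10 and 30 mmol/l. It was lower at 30 than at 2 mmol/l (-0.57 ± 0.06, adjusted p = 8.85e-07 by limma), with 2 mmol/l close to the intermediate means. In the p38 and JNK cascade 0 of the 36 others passed in either direction by limma (median -0.03; 1 higher and 4 lower at an unadjusted p under 0.05). The replicate block gave 4 higher and 1 lower in the first list and 2 higher and 3 lower in the second. With this block more of all tested probe sets passed too, 3103 of 18625, 1767 higher and 1336 lower. Block counts here and in the lists below are to be set beside these, not beside the shares without the block.

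Lists close to the members' roles had at most 2 genes called in a direction. In cAMP signalling 1 of 29 genes was higher, Prkacb, a catalytic subunit of protein kinase A (0.30 ± 0.06, adjusted p = 0.00592), and 1 lower (median -0.0028), and the block gave 2 and 3. In glucose sensing and stimulus-secretion coupling 1 of 26 was higher, the calcium pump Atp2a3 (0.27 ± 0.05, adjusted p = 0.0027), and 1 lower (median 0.01), as with the block. In the exocytosis machinery, without Stx3, 2 of 31 were higher and 0 lower (median 4.15e-05; 6 higher and 1 lower at an unadjusted p under 0.05, 4 and 2 with the block). They were Cadps, a priming factor of dense-core granules (0.29 ± 0.08, adjusted p = 0.0234), and the vesicle SNARE Vamp3 (0.22 ± 0.06, adjusted p = 0.0408). Vamp3 had means of 678, 715, 718 and 559 at 2, 5, 10 and 30 mmol/l. It was lower at 30 than at 2 mmol/l (-0.28 ± 0.09, adjusted p = 0.0175 by limma), with 2 mmol/l close to the intermediate means. Cadps lost its call without 2 mmol/l replicate 2, 5 mmol/l replicate 3 or 10 mmol/l replicate 3 (highest adjusted p = 0.0538), and Vamp3 kept its call only where the array left out was replicate 2 at 5 mmol/l, 3 at 10 mmol/l, or 1 or 2 at 30 mmol/l (up to adjusted p = 0.0909 in the others, for replicate 3 at 30 mmol/l) and lost it with median centring (adjusted p = 0.134). In the ERK cascade 0 of 19 were higher and 1 lower (median -0.0020; 3 higher and 2 lower at an unadjusted p under 0.05, 1 and 2 with the block). Among beta cell transcription factors 0 of 19 passed in either direction (median 0.05; 1 each way at an unadjusted p under 0.05, 2 and 1 with the block).

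Insulin granule and prohormone processing genes had more calls, with 5 of 20 higher and 0 lower (median 0.17), and 12 higher with the replicate block. They included Resp18 (0.27 ± 0.05, adjusted p = 0.00385), Sst (0.22 ± 0.05, adjusted p = 0.00727) and Scg5 (0.23 ± 0.05, adjusted p = 0.0121). Sst codes for the hormone of delta cells, not for a protein of insulin granules, and was on this list as well as on that of delta cells. These are among the brightest probe sets, and with quantile normalization none of the 5 passed (Resp18 0.08 with adjusted p = 0.106, Sst 0.06 with adjusted p = 0.429, Scg5 0.06 with adjusted p = 0.247). The 2 others were Ins1 (adjusted p = 0.222 with quantile normalization) and Cpe (0.668). In all 5 the mean was lowest at 2 mmol/l and higher at 30 than at 5 mmol/l, so they did not lie above both ends at both intermediate concentrations. Resp18, for example, had means of 7044, 9086, 10939 and 9733 at 2, 5, 10 and 30 mmol/l. Ins1 kept its call only where the array left out was replicate 4 at 2 mmol/l, 1 or 4 at 5 mmol/l, 1, 3 or 4 at 10 mmol/l, or 2 at 30 mmol/l (up to adjusted p = 0.0656 in the others). Cpe kept it only for replicate 1 at 5 mmol/l, 1 at 10 mmol/l or 2 at 30 mmol/l (up to adjusted p = 0.0991). The summed signal of the list ran from 75418 to 83927 at 2 mmol/l, 89354 to 99882 at 5 mmol/l, 108391 to 129654 at 10 mmol/l and 101852 to 116999 at 30 mmol/l. It was highest at 10 mmol/l, where 14 of the 21 members were too, and its part in the members' peaks was not tested.

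The islet label was checked against defining markers. Ins1, Ins2, Iapp, Gcg and Sst lay above the array's median signal in 16 of 16 arrays, and so did the fibroblast collagen Col1a1, with a mean of 137. The duct keratin Krt19 did so in 12 arrays, the endothelial marker Pecam1 in 4, and the acinar enzyme Cpa1 and the macrophage marker Cd68 in 0, with means of 61.7, 35.5, 8.91 and 14.1. Mean signals under 45, about the median of the arrays, were found for 5 of 14 duct, 9 of 13 endothelial, 11 of 16 macrophage and 4 of 19 stellate cell genes. Of the macrophage list, Cd74 (mean 192), C1qa (113), Cd14 (111) and Lyz2 (103) were well above it. On the duct list, Epcam (2067), Krt18 (1756), Krt8 (1742) and Krt7 (1176) were far brighter than Krt19. Col3a1 (892), Fn1 (473) and Vim (464) of the stellate list were brighter than Col1a1, and Esam (121) of the endothelial list was brighter than Pecam1. Of the acinar list, all 19 genes with a probe set had a mean signal under 45 and 0 were tested, and its summed signal ran from 139 to 261. Among alpha cell markers 1 of 11 was higher and 0 lower, and among delta cell markers 1 of 5, Sst, and 0 lower, with medians of 0.08 and 0.22. The call of Sst is the same one that was counted in the granule list. The replicate block gave 2 higher and 0 lower in each of the 2 lists. The alpha cell gene was Gc (0.27 ± 0.08, adjusted p = 0.0376), which kept its call only where the array left out was replicate 4 at 2 mmol/l, replicate 2 at 5 or 10 mmol/l, or replicate 1 or 4 at 30 mmol/l (up to adjusted p = 0.0827 in the others) and lost it with quantile normalization (adjusted p = 0.179) or median centring (0.0679). The summed alpha cell signal ran from 12802 to 16656, 15854 to 17221, 17982 to 20549 and 17057 to 18199 at 2, 5, 10 and 30 mmol/l. For delta cells it ran from 5811 to 7029, 7320 to 7900, 9091 to 10238 and 8483 to 9107. Both sums were highest at 10 mmol/l, like most members, and their part in the members' peaks was not tested.

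Of the other cell types, duct cell markers had 1 of 9 higher and 1 lower (median -0.02), and 2 higher and 3 lower with the replicate block. The higher gene was the keratin Krt7 (0.20 ± 0.06, adjusted p = 0.0315). Its means of 1417, 1519, 976 and 792 at 2, 5, 10 and 30 mmol/l show that 10 mmol/l lay below 2 mmol/l. Krt7 lost its call without replicate 2 or 4 at 2 mmol/l, 3 or 4 at 5 mmol/l, 4 at 10 mmol/l, or 2 or 3 at 30 mmol/l (up to adjusted p = 0.0696) and with quantile normalization (0.0629) or median centring (0.0798). PP and epsilon (5 tested), endothelial (7), macrophage (7), stellate (18) and Schwann cell markers (3) had 0 calls by limma either way, with medians of 0.06, 0.19, 0.27, 0.13 and 0.24. At an unadjusted p under 0.05 endothelial markers had 1 each way, stellate markers 1 lower, and the other 3 lists 0. With the replicate block 4 stellate, 1 PP and epsilon and 1 macrophage marker were higher and 0 lower, endothelial markers had 1 each way and Schwann cell markers 0. The summed stellate signal ran from 2455 to 5002, 2514 to 5716, 2917 to 7658 and 3046 to 6827 at 2, 5, 10 and 30 mmol/l, so that all groups overlapped.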

How the data were processed

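Arrays of whole islet RNA were grouped by the glucose concentration of their labels. The values used are the deposited signal intensity of each probe set (linear scale), made by the authors with GCOS per the submitters' processing notes, with version and settings not given in the sources used here. Its trimmed mean (2% at each end) is the same in every array. Signals under 3.4, about the 10th percentile, were set to 3.4 and log2 was taken. Of 31099 probe sets, 57 controls served array checks, 20826 had 1 symbol by the platform annotation, 436 several and 9780 none. The number of arrays, 4 per group, limits the precision.

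The test was limma's (version 3.58.1, R 4.3.3; lmFit over 16 arrays, 12 residual degrees of freedom, eBayes with trend, two-sided, Benjamini-Hochberg over the 18625 tested probe sets), and every adjusted p of a gene is limma's. The code was tested on simulated data. A gene of a list is its brightest single-symbol probe set. Members and lists were chosen with earlier results of these data known. Values in every array are given for the 12 highest peaks, the highest of each role, the called members with the 5 largest changes each way, and both markers, and a list names up to 3 genes by smallest p, with further called genes named after their values were seen. Per the design text the experiments used different islet preparations. Whether replicate numbers pair the arrays was checked on deviations from the group means: the 24 same-number pairs had r of 0.136 to 0.434 and 72 others -0.264 to 0.130, and 16 of 16 arrays matched their own number best, so the number was also fitted as a block. Each number was 1 fluidics run, over 3 scan days and 2 chip lots. Alternatives were blocks (replicate, scan day), quantile normalization, median centring, an offset of 50, other level filters, eBayes without trend, a threshold of 0.01, only the groups compared, other heights and levels in the rule, centring on the hybridization controls, and leaving out arrays or replicate numbers.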

Additional observations from a re-analysis of the deposited data

Results flagged for a closer look

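In 7 of 84 groups of 4 arrays (21 members at 4 concentrations) 1 array stood far from the other 3, past the critical value of Dixon's test, where chance gives about 1 in 20, or 4.2. Gria2 held 2 of them: 421.3 at 30 mmol/l in replicate 1, against 235 to 261 in the others, and 527.2 at 10 mmol/l in replicate 3, against 437 to 451. Without the first of these arrays the peak height of Gria2 was 0.92 in place of 0.72, and its change from 2 to 30 mmol/l was 0.42 (adjusted p = 0.0205 by limma) in place of 0.62. Ppp1r1a also held 2: 652.6 at 5 mmol/l in replicate 2, against 604 to 611, and 600.0 at 30 mmol/l in replicate 3, against 666 to 677. Zbtb38 read 38.9 at 30 mmol/l in replicate 1, against 45 to 46.1. Pcdh9 read 233.0 at 2 mmol/l in replicate 1, against 283 to 285. Fndc10 read 86.0 at 30 mmol/l in replicate 3, against 94.7 to 95.6.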

How the results depend on the processing

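The rule chose 21 probe sets. The count was 54 with a height of 0.5, 5 with 0.8, 38 with a mean signal of 50, 13 with an offset of 50 on the signal and 4 with arrays centred on their hybridization controls. Leaving out 1 array or replicate number gave 20 to 34, with 34 for replicate 1 at 30 mmol/l, and 33 for replicate 3 at 10 mmol/l or all arrays of replicate 4. All 21 members stayed above both ends in each of these settings. The rule chose them on the same arrays, and other heights or levels leave their values unchanged, so nothing is read from this. Members called in 30 over 2 mmol/l were 11, and 7 at a threshold of 0.01; leaving out arrays gave 7 to 11, with 7 without 30 mmol/l replicate 2 or without replicate 2 or replicate 3 as a whole. With quantile normalization their split was 5 higher and 5 lower in place of 4 and 7. Without eBayes trend or with all probe sets tested 9 members passed, and 8 with only the 2 and 30 mmol/l arrays. Over all probe sets 30 over 2 gave 6869 calls, and 5244 to 6898 with arrays left out. In the intermediate against the end concentrations 1425 probe sets passed, 3103 with the replicate block, 2330 with scan day as a block and 521 at 0.01, and leaving out arrays gave 442 to 1441, with 790, 442, 540 and 707 without replicate 1, 2, 3 and 4. List genes called were 20 (15 higher, 5 lower; 18 without Acvr1c and Map2k6, which all these list counts include), 59 with the replicate block, 37 with scan day, 10 at 0.01, 13 without eBayes trend and 7 to 22 with arrays left out, with 8 and 7 without replicates 2 and 3. With quantile normalization they were 8 higher and 7 lower. The change of Ccnt2 from 2 to 30 mmol/l ran from -0.081 to 0.39 over these settings and turned sign for replicate 2 at 2 mmol/l (-0.081) and replicate 4 at 30 mmol/l (-0.018). That of Serpinb9b ran from -1.13 to 0.69 and turned sign for replicate 4 at 2 mmol/l (0.26) and replicate 3 at 30 mmol/l (0.69), and neither change passed. The causes were not tested, apart from the smaller number of arrays where some were left out.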

Other observations

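Among the list genes, those lower at the intermediate concentrations include several regulators. Rasgrf1, an exchange factor that activates Ras, had a log2 difference of -0.99 ± 0.21 between the intermediate and the end concentrations (SE, limma, adjusted p = 0.00665), with means of 65.2, 37.8, 30.9 and 69.3 at 2, 5, 10 and 30 mmol/l. Crem, a cAMP-responsive regulator of transcription, had -0.64 ± 0.07 (adjusted p = 3.82e-05), but its means of 263, 213, 508 and 993 show that the highest level was at 30 mmol/l. The glycolytic enzyme Gpi (-0.31 ± 0.06, adjusted p = 0.00642) and the bicarbonate cotransporter Slc4a4 (-0.56 ± 0.09, adjusted p = 0.00119) were also highest at 30 mmol/l. Tgif1, a repressor of TGF-beta responses, had -0.46 ± 0.14 (adjusted p = 0.0434) and kept its call only where the array left out was replicate 1 or 2 at 5 mmol/l, 1 at 10 mmol/l or 2 at 30 mmol/l (up to adjusted p = 0.0895 in the others), and lost it with median centring (adjusted p = 0.0594).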
